A study of Mus musculus with 7 samples.

Results

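The goblet mucus component genes measured here are Muc2, Fcgbp, Clca1, Zg16, Agr2, Tff3, Bcas1, Spink4 and Retnlb. They were chosen by gene name, as products of goblet cells that make up, accompany or fold the mucus, and every array probe that carries such a name was taken. All 9 genes are on the array, with 13 probes among the 41174 gene probes and 28508 gene names. Goblet cells are secretory cells of the intestinal epithelium that fill granules with mucin and release it onto the gut surface as a mucus layer. Muc2, the gel-forming mucin, is assembled in the endoplasmic reticulum and Golgi apparatus into large polymers, and smaller secreted proteins are stored and released with it. Goblet cells share their origin with Paneth cells, the antimicrobial cells of the crypt base, since both arise from progenitors that carry the Notch ligand Dll1.

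RNA was measured on 7 dual-colour arrays in sorted epithelial cells of the mouse intestine. Dll1-EGFP-ires-CreERT2 mice, in which the Dll1 promoter drives GFP, gave GFP-high cells at CD24 low, CD24 medium and CD24 high, with 2 biological replicates each, and Lgr5-EGFP-ires-CreERT2 mice gave 1 sample of GFP-high cells, which the submitters regard as stem cells. The labels used here give no age or strain background and do not say how many animals went into a sample. Every sample carried Cy3, and RNA of whole small intestine carried Cy5 on the same array, so a level below is the log2 ratio of sample to whole intestine, and 0 means the level of whole intestine after dye normalisation. Where 0 lies depends on that step, by a loess curve here, and values under another normalisation are given further on. Ratios of different genes are not compared as amounts. In sorted bulk samples, fewer cells of a type and less RNA per cell cannot be told apart.

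Cd24a, which encodes CD24, had log2 ratios of -0.68 and -0.59 in CD24 low, 0.88 and 0.75 in CD24 medium, 3.34 and 3.47 in CD24 high and -0.11 in Lgr5 cells, in the order of the sort. Dll1 had 2.56 and 2.52 in CD24 low, 2.81 and 2.53 in CD24 medium, 0.61 and -0.04 in CD24 high and 0.88 in Lgr5 cells, with differences from CD24 high of 2.26 in CD24 low (adjusted p = 0.0017) and 2.39 in CD24 medium (adjusted p = 0.0016), although all these cells were sorted on its reporter. Lgr5 was highest on the Lgr5 array, at 2.51, with 1.36 and 1.31 in CD24 high cells and negative values at the other levels. The share of spots well above background in the sample channel was 42.5 to 44.4% on the CD24 high arrays and 52.8 to 60.5% on the other arrays. Over all probes kept, replicates correlated at 0.90 in CD24 low, 0.93 in CD24 medium and 0.91 in CD24 high. A list of 10 Paneth markers, 8 of them measured, had mean log2 ratios of -2.10 to -2.07 in CD24 low, -0.61 to -0.42 in CD24 medium, 4.75 to 4.92 in CD24 high and -3.21 in Lgr5 cells. A list of 10 enteroendocrine markers ranged from 1.02 to 2.86 in CD24 low, from 2.89 to 4.40 in CD24 medium and from -0.74 to -0.46 in CD24 high, with -1.27 in Lgr5 cells. The part of these other secretory cells in the results that follow was not tested.

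The probes decide what is read for each gene, so those of the genes whose values turn on the probe are given here as they stand on the array, 5′ to 3′, on mm9. The 4 Muc2 probes lie on the plus strand of chromosome 7 and are numbered from the 5′ end of the gene. Probe 1 spans chr7:148879101-148879252 across an intron, probe 2 chr7:148883009-148883068, probe 3 chr7:148886790-148887257 across an intron and probe 4 chr7:148940000-148940059. The file names probe 3 only by an Ensembl transcript, which it lists for other Muc2 probes too, so it is an addition to the 13 probes chosen by name. The start of probe 4 lies 53210 bases beyond that of probe 3 in the genome, so it reads a distant stretch of the gene.
Muc2 probe 1: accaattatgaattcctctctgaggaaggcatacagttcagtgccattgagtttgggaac
Muc2 probe 2: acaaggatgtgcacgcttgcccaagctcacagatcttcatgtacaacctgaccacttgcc
Muc2 probe 3: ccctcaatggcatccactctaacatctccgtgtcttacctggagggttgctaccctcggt
Muc2 probe 4: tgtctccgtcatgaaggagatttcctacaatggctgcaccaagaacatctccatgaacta

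Both Fcgbp probes lie close together on the plus strand of chromosome 7, probe 1 at chr7:28902583-28905377 across an intron and probe 2 at chr7:28905517-28905576. Probe 1 also lists an accession that RefSeq gives to a neighbouring Fcgbp-like gene, 9530053A07Rik, so its signal may hold both transcripts. Zg16, which was higher in CD24 low than in CD24 high, and Spink4, which was lower, have 1 probe each, at chr7:134193837-134193896 on the minus strand and at chr4:40876206-40878330 on the plus strand.
Fcgbp probe 1: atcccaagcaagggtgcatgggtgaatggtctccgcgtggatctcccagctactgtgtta
Fcgbp probe 2: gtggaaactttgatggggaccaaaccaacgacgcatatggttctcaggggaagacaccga
Zg16 probe: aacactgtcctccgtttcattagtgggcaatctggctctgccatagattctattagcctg
Spink4 probe: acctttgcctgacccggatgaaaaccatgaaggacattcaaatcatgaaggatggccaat

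The symbol Clca1 needs care, because the array uses older names. The probe that the file calls Clca3 carries the accession of the gene now named Clca1, also known as Gob-5, and it is the probe meant by Clca1 below. The probe that the file calls Clca1 belongs to a different gene, now Clca3a1, which was not counted as a member. Its log2 ratios were -0.57 and 0.00 in CD24 low, -0.92 and -0.77 in CD24 medium, -1.41 and -0.74 in CD24 high, where it was not well above background, and 0.19 in Lgr5 cells.

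In CD24 low cells, 6 of the 9 genes were higher than in CD24 high cells: Fcgbp, Zg16, Clca1, Bcas1, Agr2 and Tff3. Spink4 and Retnlb were lower, and Muc2 passed the test in neither direction. A gene is called here by its brightest probe, at a limma p-value adjusted over all probes of under 0.05, and by that rule 5.96% of all 24509 probes tested were higher and 9.56% lower. In CD24 medium cells the same 6 genes were higher than in CD24 high and Spink4 was lower, against 6.81% of all probes higher and 12.1% lower. The 9 brightest probes were well above background on both CD24 high arrays, so no product was undetected in CD24 high cells, and the groups differed in degree. They were well above background on the Lgr5 array too. Detection by this flag therefore does not tell which products CD24 high cells share. The median difference over the 24509 probes was 0.02 for CD24 low minus CD24 high and 0.00 for CD24 medium minus CD24 high.

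**Figure D1:**
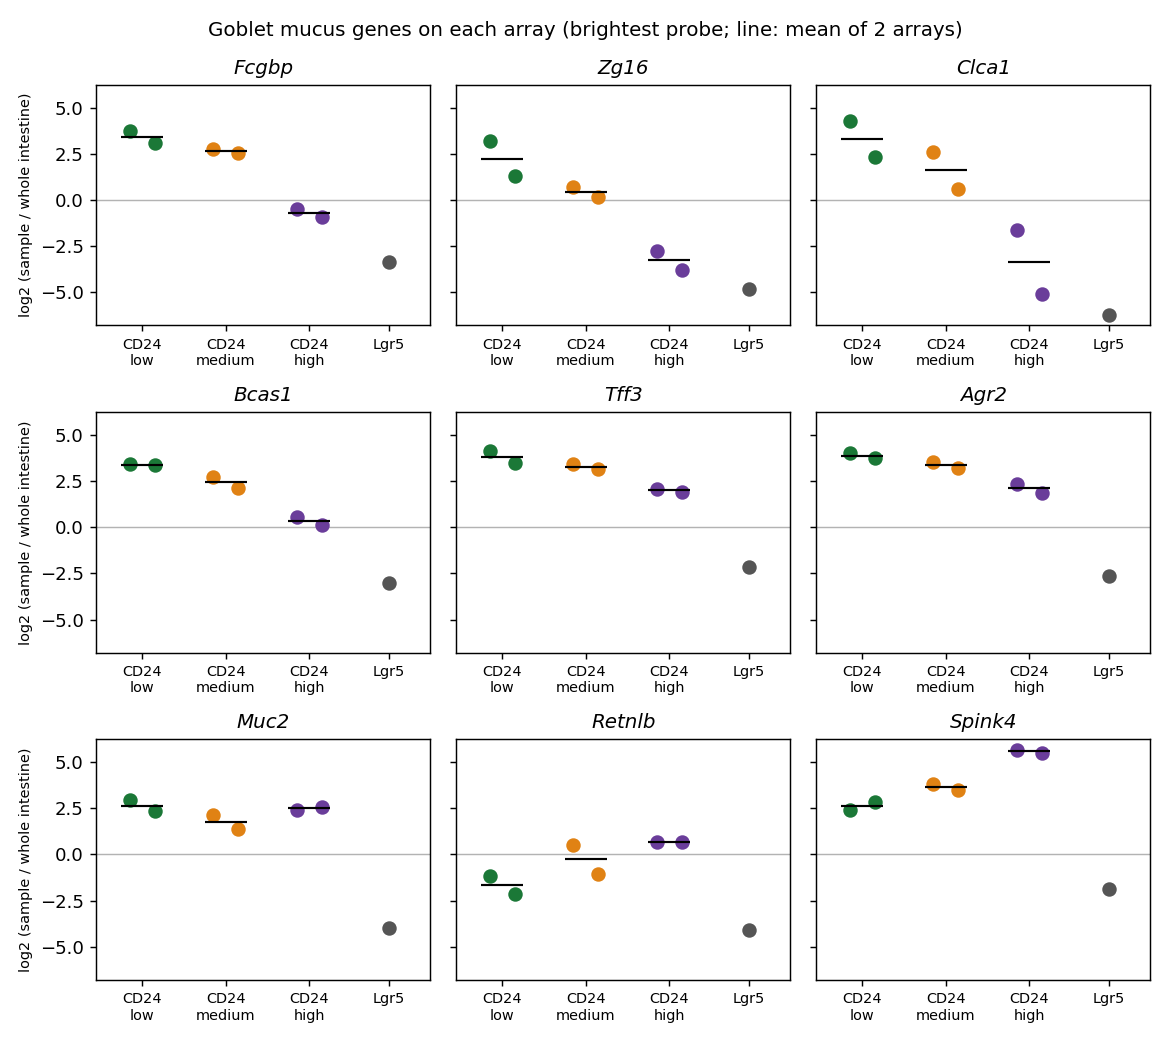
Log2 ratio of sample to whole intestine (vertical axis, the same in every panel) for the brightest probe of each gene on each of the 7 arrays, with 1 point per array, grouped as CD24 low, CD24 medium, CD24 high and Lgr5 (horizontal axis), and a line at the mean of the 2 arrays of a CD24 level. Fcgbp, Zg16, Clca1, Bcas1, Tff3 and Agr2 step down toward CD24 high, Spink4 and Retnlb step up, and Muc2 has CD24 low and CD24 high arrays that overlap.

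Fcgbp encodes a large secreted protein that was named for binding the Fc part of IgG and is a main companion of Muc2 in mucus. Its brightest probe had log2 ratios of 3.73 and 3.07 in CD24 low, 2.79 and 2.57 in CD24 medium, -0.49 and -0.93 in CD24 high and -3.33 in Lgr5 cells. All CD24 low and medium arrays stood above whole intestine and both CD24 high arrays below it. The difference of CD24 low minus CD24 high was 4.11 ± 0.27 (SE), a 17.3-fold difference (adjusted p = 0.00021), and that of CD24 medium minus CD24 high was 3.39 ± 0.27 (10.5-fold, adjusted p = 0.00057). Fcgbp probe 1 gave 4.54 and 3.86 in CD24 low, 3.54 and 3.38 in CD24 medium, -0.29 and -0.76 in CD24 high and -3.14 in Lgr5 cells. Its differences from CD24 high, 4.72 for CD24 low and 3.98 for CD24 medium, were somewhat larger and passed too.

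Zg16 encodes a lectin-like protein of mucus and of secretory granules. Its log2 ratios were 3.18 and 1.29 in CD24 low, 0.73 and 0.17 in CD24 medium, -2.73 and -3.78 in CD24 high and -4.84 in Lgr5 cells. The groups did not overlap, and the CD24 low replicates lay further apart than those of the other levels. The difference from CD24 high was 5.50 ± 0.62 in CD24 low (45.2-fold, adjusted p = 0.0022) and 3.71 ± 0.62 in CD24 medium (13.1-fold, adjusted p = 0.01). The CD24 low difference was 4.55 without CD24 low replicate 1 and 6.44 without CD24 low replicate 2. In CD24 medium the call was lost without medium replicate 1 (adjusted p = 0.054) or without high replicate 2 (adjusted p = 0.057), and over all alternatives its adjusted p ran from 0.00079 to 0.057.

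Clca1 is a secreted metalloprotease that is abundant in intestinal mucus. Its log2 ratios were 4.29 and 2.33 in CD24 low, 2.63 and 0.61 in CD24 medium, -1.64 and -5.06 in CD24 high and -6.19 in Lgr5 cells. Replicates lay far apart at each level, yet every CD24 low and medium array was above both CD24 high arrays. The difference of CD24 low minus CD24 high, 6.66 ± 1.21 (101-fold, adjusted p = 0.014), was the highest positive difference of all probes tested, and that of CD24 medium was 4.97 ± 1.21 (31.3-fold, adjusted p = 0.034). Without CD24 high replicate 2, these were 4.94 (adjusted p = 0.042) and 3.25 (adjusted p = 0.12), and without CD24 high replicate 1 they were 8.37 and 6.68. The CD24 low difference was 5.68 without CD24 low replicate 1 and 7.64 without CD24 low replicate 2, and both passed. The CD24 medium call was lost without medium replicate 1 (difference 3.96, adjusted p = 0.15) and without medium replicate 2 (5.97, adjusted p = 0.063), and also with Agilent's processed signals (adjusted p = 0.055) or without a filter on dim probes (adjusted p = 0.054), in a range of 0.0017 to 0.15 over all alternatives.

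Bcas1, known from early myelinating oligodendrocytes in the brain and also found among goblet cell transcripts, had a pattern near that of Fcgbp. Its brightest probe gave log2 ratios of 3.40 and 3.37 in CD24 low, 2.71 and 2.13 in CD24 medium, 0.54 and 0.10 in CD24 high and -3.02 in Lgr5 cells. No levels overlapped. The difference from CD24 high was 3.07 ± 0.25 in CD24 low (8.38-fold, adjusted p = 0.00052) and 2.10 ± 0.25 in CD24 medium (4.29-fold, adjusted p = 0.0029). Its further probe, 2.26 and 2.93 in CD24 low, 1.36 and 1.53 in CD24 medium, -0.03 and -0.04 in CD24 high and -1.20 in Lgr5 cells, gave 2.63 and 1.48 and passed both times.

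Agr2 is a protein disulfide isomerase of the endoplasmic reticulum that mucin production in the mouse intestine depends on. Its log2 ratios were 4.03 and 3.72 in CD24 low, 3.50 and 3.19 in CD24 medium, 2.35 and 1.87 in CD24 high and -2.66 in Lgr5 cells. Tff3, a trefoil peptide that is secreted with mucin, had 4.14 and 3.45 in CD24 low, 3.42 and 3.15 in CD24 medium, 2.09 and 1.91 in CD24 high and -2.13 in Lgr5 cells. For both genes every CD24 low and medium array was above both CD24 high arrays, and the Lgr5 array was below all of them. For Agr2 the difference from CD24 high was 1.77 ± 0.23 in CD24 low (3.40-fold, adjusted p = 0.0038) and 1.23 ± 0.23 in CD24 medium (2.35-fold, adjusted p = 0.014). For Tff3 it was 1.80 ± 0.25 in CD24 low (3.49-fold, adjusted p = 0.005) and 1.29 ± 0.25 in CD24 medium (2.44-fold, adjusted p = 0.017). The CD24 medium calls of both were lost within slide 2 alone, without medium replicate 1 and without high replicate 2, at adjusted p-values of 0.053, 0.085 and 0.068 for Agr2 and of 0.1, 0.092 and 0.085 for Tff3, and for Tff3 also without medium replicate 2 (adjusted p = 0.062). Over all alternatives the adjusted p of these CD24 medium calls ran from 0.00047 to 0.085 for Agr2 and from 5e-04 to 0.1 for Tff3.

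**Figure D2:**
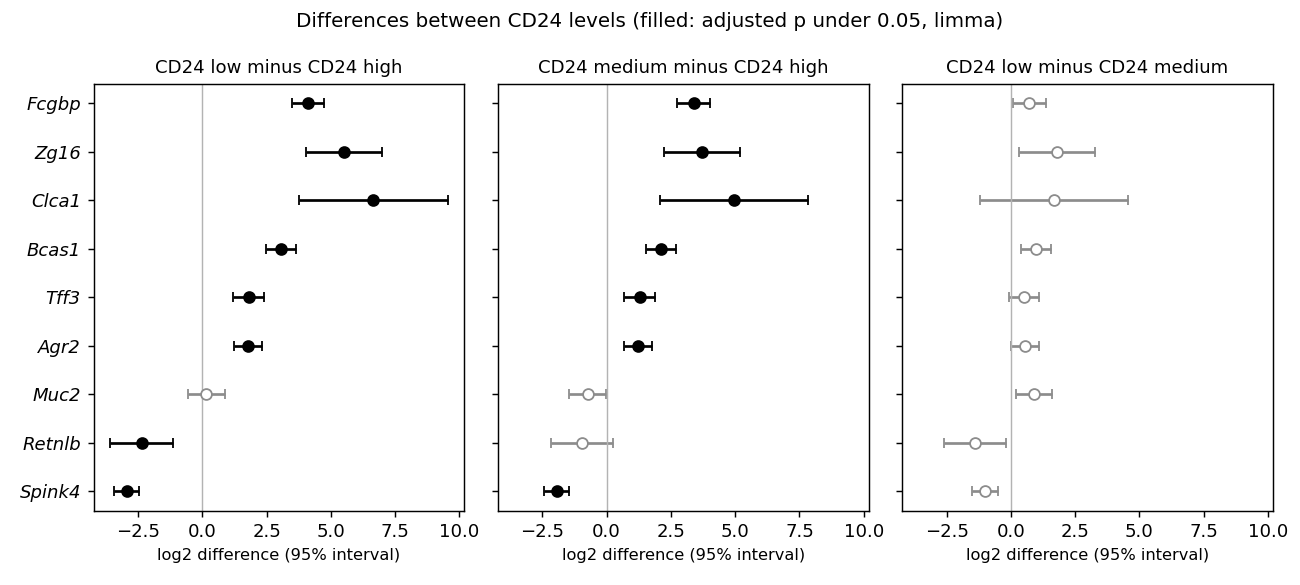
Log2 difference (horizontal axis, the same scale in every panel) with its 95% interval for the brightest probe of each of the 9 genes, for CD24 low minus CD24 high, CD24 medium minus CD24 high and CD24 low minus CD24 medium. Filled points have an adjusted p under 0.05 in limma. Spink4 lies below 0 beside CD24 high in both comparisons, and no point of CD24 low minus CD24 medium is filled.

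For Muc2 itself the CD24 levels lay close together and far above the Lgr5 array. Its brightest probe, probe 4, had log2 ratios of 2.94 and 2.35 in CD24 low, 2.12 and 1.38 in CD24 medium, 2.42 and 2.56 in CD24 high and -3.96 in Lgr5 cells. The CD24 low and CD24 high arrays overlapped, with a difference of 0.16 and a 95% interval from -0.55 to 0.87 (adjusted p = 0.75). Both CD24 medium arrays were below both CD24 high arrays, with a difference of -0.74 and an interval from -1.45 to -0.03 that did not pass after adjustment (adjusted p = 0.13). The interval for CD24 low allows a difference of up to 0.87 on the log2 scale, so equal levels are not shown.

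The other Muc2 probes placed CD24 high lower. Probe 2 had log2 ratios of 3.47 and 2.77 in CD24 low, 2.86 and 2.10 in CD24 medium, 2.07 and 2.04 in CD24 high and -1.33 in Lgr5 cells, and probe 3 had 3.01 and 2.20 in CD24 low, 2.22 and 1.51 in CD24 medium, 1.39 and 1.31 in CD24 high and -1.47 in Lgr5 cells. Probe 1 gave 3.37 and 2.85 in CD24 low, 2.90 and 2.22 in CD24 medium, 1.59 and 0.94 in CD24 high and -0.73 in Lgr5 cells, where it was not well above background. For each of these 3 probes every CD24 low and medium array stood above both CD24 high arrays. The difference of CD24 low minus CD24 high was 1.85 (adjusted p = 0.012) for probe 1, 1.06 (adjusted p = 0.067) for probe 2 and 1.25 (adjusted p = 0.047) for probe 3. For CD24 medium minus CD24 high, probe 1 passed with 1.30 (adjusted p = 0.036), and probes 2 and 3, with 0.42 and 0.52, did not. Probe 4 was far brighter, with sample intensities of 14999 and 16059 in CD24 high cells, where those of probe 1 were 156 to 160. Before correction probe 4 read higher at the other levels, with 76115 and 39044 in CD24 low and 45528 and 22766.5 in CD24 medium. With the mean of the probes that carry the Muc2 name, the differences from CD24 high were 1.02 for CD24 low (adjusted p = 0.066) and 0.33 for CD24 medium (adjusted p = 0.48).

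**Figure D3:**
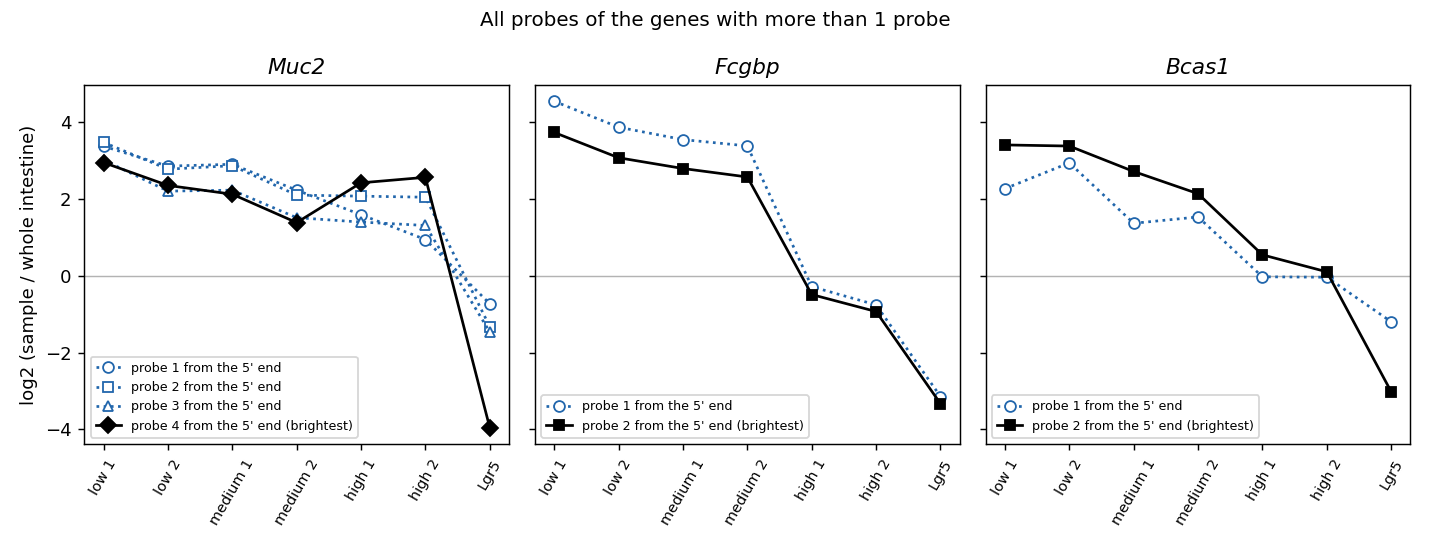
Log2 ratio of sample to whole intestine (vertical axis) of every probe of Muc2, Fcgbp and Bcas1 on the 7 arrays (horizontal axis), with filled symbols and solid lines for the brightest probe and open symbols and dotted lines for the others, numbered from the 5′ end. The lines join the values of a probe and stand for no order of the replicates. The Fcgbp probes run side by side, the brightest Bcas1 probe is above the other on the Dll1 arrays and below it on the Lgr5 array, and in CD24 high Muc2 probe 4 is above the other 3 Muc2 probes.

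Spink4, a secreted protein of the Kazal protease inhibitor family found in goblet cells, ran the other way. Its log2 ratios were 2.41 and 2.84 in CD24 low, 3.79 and 3.47 in CD24 medium, 5.64 and 5.51 in CD24 high and -1.87 in Lgr5 cells, with no overlap between levels. The difference from CD24 high was -2.95 ± 0.21 in CD24 low (7.70-fold lower, adjusted p = 0.00031) and -1.94 ± 0.21 in CD24 medium (3.85-fold lower, adjusted p = 0.0021). The size of this pattern depends on the dye normalisation. Before the loess curve the log2 ratios were -0.59 and -0.69 in CD24 low and 0.78 and 0.24 in CD24 medium, against 0.45 and 0.32 in CD24 high. The curve added 3.01 and 3.53 on the CD24 low arrays and 3.01 and 3.23 on the CD24 medium arrays, against 5.19 on each CD24 high array. With median centring in place of loess the CD24 low difference was -1.35 (adjusted p = 0.0045) and the CD24 medium difference was -0.03 (adjusted p = 0.95). From the sample channel alone they were -0.35 (adjusted p = 0.2) and 0.24 (adjusted p = 0.37). Over all alternatives the adjusted p ran from 0.00015 to 0.2 in CD24 low and from 0.001 to 0.95 in CD24 medium.

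The same choice bears on Muc2, where the curve added 3.03 and 3.53 on the CD24 low arrays, 2.99 and 3.16 on the CD24 medium arrays and 4.91 and 4.89 on the CD24 high arrays. With median centring Muc2 probe 4 was higher in CD24 low than in CD24 high by 1.45 (adjusted p = 0.013), and CD24 medium minus CD24 high turned to 0.94 (adjusted p = 0.062). Over all alternatives the adjusted p of Muc2 ran from 0.013 to 0.91 in CD24 low and from 0.062 to 0.91 in CD24 medium. For Fcgbp, Zg16, Clca1, Bcas1, Agr2 and Tff3 median centring kept the direction and gave CD24 low differences between 3.12 and 7.62. Median centring called 28.5% of all probes higher and 3.94% lower in CD24 low, and 36.3% higher and 3.47% lower in CD24 medium. It moved the median of all probes from 0.02 to 0.27 for CD24 low minus CD24 high and from 0.00 to 0.35 for CD24 medium minus CD24 high.

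Retnlb, which encodes the resistin-like protein RELMβ that goblet cells secrete into the lumen, was below whole intestine in CD24 low cells. Its log2 ratios were -1.19 and -2.15 in CD24 low, 0.50 and -1.04 in CD24 medium, 0.68 and 0.69 in CD24 high and -4.11 in Lgr5 cells. The CD24 low arrays were the lowest of the Dll1 arrays, and the CD24 medium replicates lay further apart than those of the other levels. The difference of CD24 low minus CD24 high was -2.35 ± 0.51 (5.11-fold lower, adjusted p = 0.026). CD24 medium differed from CD24 high by -0.96, with an interval from -2.18 to 0.26 (adjusted p = 0.23). Without medium replicate 1 this was -1.73 (adjusted p = 0.055) and without medium replicate 2 it was -0.19 (adjusted p = 0.82). The CD24 low call was lost with slide as a term (adjusted p = 0.058), with median centring (difference -1.38, adjusted p = 0.075), and without low replicate 2 (0.12), high replicate 1 (0.096) or high replicate 2 (0.1), where the figures in parentheses are adjusted p-values, and over all alternatives it ran from 0.0074 to 0.12.

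Between CD24 low and CD24 medium, limma called 0 of the 9 genes, and 6 had an unadjusted p under 0.05, as did 2509 of all 24509 probes. Over all probes 0.0857% were called, 21 probes that were all lower in CD24 low. The differences were 1.79 for Zg16, 1.69 for Clca1, 0.97 for Bcas1, 0.90 for Muc2, 0.72 for Fcgbp, 0.53 for Agr2 and 0.51 for Tff3, and -1.40 for Retnlb. For Spink4, lower in CD24 low, the interval was -1.50 to -0.51 (adjusted p = 0.23) and for Bcas1 it was 0.38 to 1.55 (adjusted p = 0.3). The comparisons share arrays, so their values are given side by side and not as separate evidence.

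In Lgr5 cells, measured on 1 array that is assumed to vary like the others, log2 ratios of the 9 brightest probes were between -6.19 and -1.87. Against that array, 9 of 9 genes were higher in CD24 low cells, where 11.7% of all probes were higher, and 9 of 9 in CD24 medium cells, where 9.76% were. In CD24 high cells 7 of 9 were higher, against 19.8% of all probes. The differences of CD24 high minus Lgr5 were 7.45 for Spink4 (adjusted p = 2.7e-05), 6.44 for Muc2 (adjusted p = 0.00011), 4.79 for Retnlb, 4.77 for Agr2, 4.13 for Tff3, 3.34 for Bcas1 and 2.62 for Fcgbp (adjusted p = 0.0017). Clca1, with 2.84 (interval -0.69 to 6.37, adjusted p = 0.19), and Zg16, with 1.58 (interval -0.24 to 3.39, adjusted p = 0.16), did not pass. Without CD24 low replicate 1 or 2 the Zg16 difference stayed 1.58, as those arrays enter only the shared estimate of the spread. Over all alternatives its adjusted p ran from 0.043 to 0.45. With median centring Zg16 had -0.90, and its sample intensities were 2306 and 1125 on the CD24 high arrays and 3279 on the Lgr5 array. Clca1 passed with slide as a term (adjusted p = 0.016), and without CD24 high replicate 2, with 4.56 (adjusted p = 0.041), while without CD24 high replicate 1 it was 1.13 (adjusted p = 0.55), in a range of 0.016 to 0.77 over all alternatives. With median centring the differences of CD24 high minus Lgr5 were smaller, 4.66 for Spink4, 4.05 for Muc2, 3.14 for Retnlb and 2.10 for Agr2. Bcas1 then had 1.95, Tff3 1.35 and Clca1 0.67. The Fcgbp difference was 0.22 with median centring (adjusted p = 0.75, in a range of 0.00096 to 0.75 over all alternatives). Sample intensities of the brightest Fcgbp probe were 4233 and 3237 on the CD24 high arrays and 3549 on the Lgr5 array. Retnlb in CD24 low minus Lgr5, 2.44 (adjusted p = 0.037), missed the threshold under 8 of 21 alternatives, with adjusted p-values of 0.0055 to 0.11.

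Intensities show how the ratios arise. Clca1 had sample intensities of 184757 and 90782 in CD24 low, 126215 and 37106 in CD24 medium, 2872 and 297 in CD24 high and 694 in Lgr5 cells. Spink4 had 51296 and 49380 in CD24 low, 119011 and 94084 in CD24 medium, 114223 and 102862 in CD24 high and 5452 in Lgr5 cells. Before any correction, then, Spink4 was about as bright in CD24 medium as in CD24 high. Clca1 was far dimmer on both CD24 high arrays than on any CD24 low or medium array, and its CD24 high replicates lay far apart.

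The reference channel, which carried the same kind of whole intestine RNA throughout, was not equal for the brightest members. For Clca1 it read 79243 and 223090 on the CD24 low arrays, 168842 and 229518 on the CD24 medium arrays, 253701 and 259457 on the CD24 high arrays and 253679 on the Lgr5 array. The highest over the lowest reading was 3.27-fold for Clca1, 2.23-fold for Tff3, 2.02-fold for Zg16 and 1.79-fold for Agr2, each lowest on CD24 low replicate 1, against a median of 1.22-fold over all spots of probes that passed the filter. For Muc2, Spink4, Fcgbp, Retnlb and Bcas1 it was between 1.13-fold and 1.35-fold. A low reference reading raises the ratio, and its part in the high ratios of CD24 low replicate 1 was not tested. Without that array the 6 genes called higher in CD24 low than in CD24 high were still called.

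**Figure D4:**
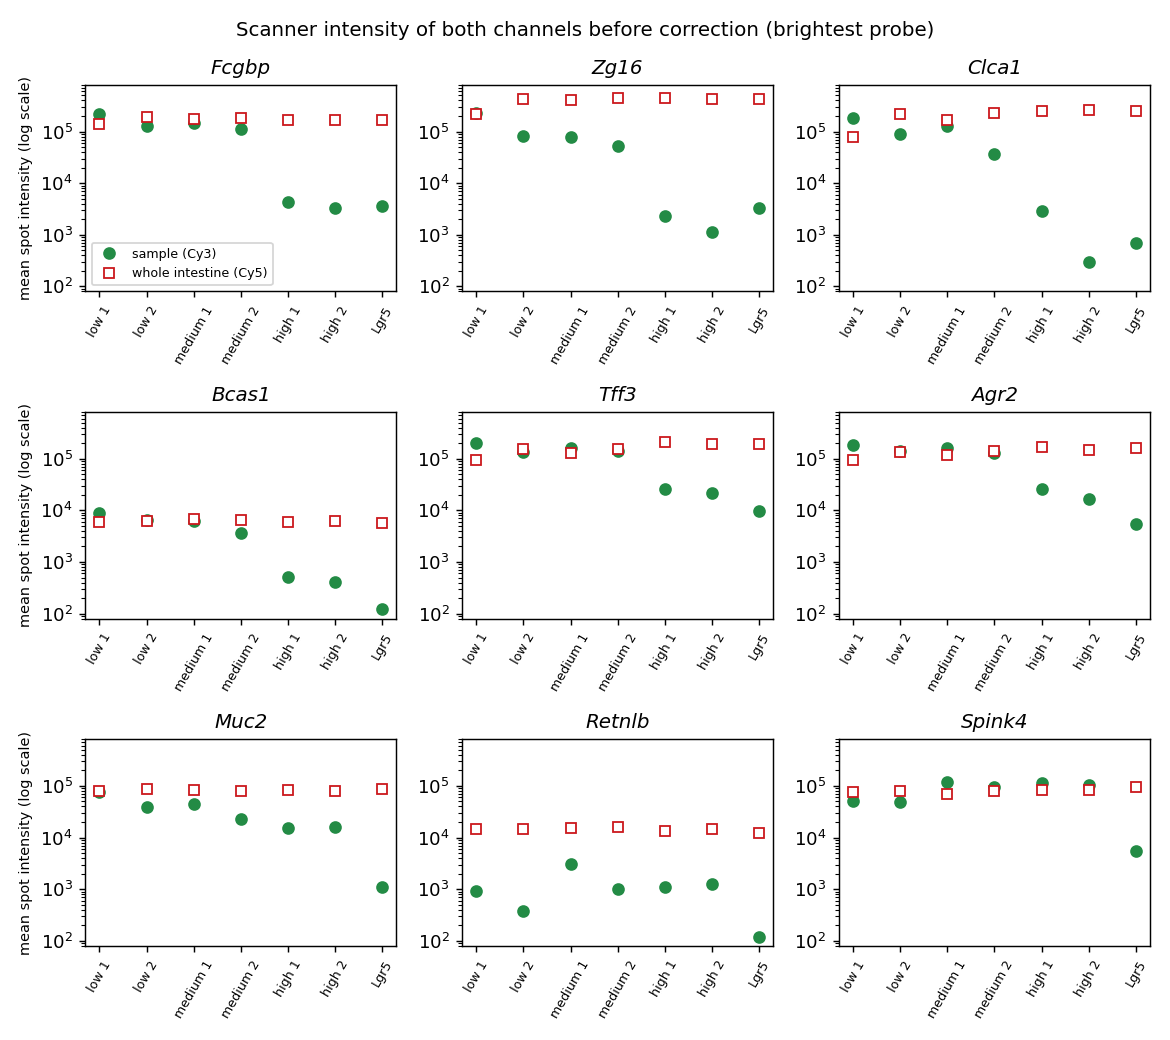
Mean spot intensity on a log axis (vertical, the same range in every panel) of the sample channel (Cy3, filled circles) and the whole intestine channel (Cy5, open squares) on the 7 arrays (horizontal axis), before correction, for the brightest probe of each of the 9 genes. The Cy5 squares of Clca1, Zg16, Tff3 and Agr2 are lowest on CD24 low replicate 1, and the Cy3 circles of Fcgbp, Zg16 and Clca1 drop by more than a factor of 10 on the CD24 high arrays.

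Where the genes stood against whole intestine depended on the loess curve. With loess, Fcgbp, Zg16 and Clca1 were above 0 on every CD24 low and medium array and below 0 in CD24 high, while Bcas1, Agr2, Tff3 and Muc2 were above 0 on all 6 Dll1 arrays. With median centring, 8 of the 9 genes were below 0 on both CD24 high arrays, all but Spink4. Agr2 then had 1.95 and 1.39 in CD24 low, 1.76 and 1.26 in CD24 medium, against -1.08 and -1.83 in CD24 high. Muc2 had 0.91 and 0.11 in CD24 low, 0.42 and -0.44 in CD24 medium, against -0.85 and -1.04 in CD24 high. Zg16 was then above 0 on CD24 low replicate 1 alone, at 1.05, with -1.04 and -1.77 in CD24 medium. Fcgbp kept its signs, with 1.62 and 0.72 in CD24 low, 1.03 and 0.63 in CD24 medium, against -3.68 and -4.39 in CD24 high. Over the 7 arrays, log2 ratios of Agr2 and Tff3 correlated at 0.997, of Clca1 and Zg16 at 0.980, of Fcgbp and Bcas1 at 0.980 and of Spink4 and Retnlb at 0.940, while Zg16 and Retnlb had 0.107. These describe 7 arrays that share a reference and of which 6 are replicate pairs.

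Among 13759 named genes, those whose ratios ran most like Muc2 were Galnt12 at a Pearson r of 0.997, Gfus at 0.997 and Cgref1 at 0.996. Galnt12 encodes an enzyme that starts O-glycosylation and Gfus an enzyme that makes GDP-fucose. Nearest to Fcgbp were Pde2a at 0.995, Serpina1d at 0.994 and Mavs at 0.993. Agr2 was most like Gde1 at 0.998, Gcnt3, which makes branched mucin-type O-glycans, at 0.998, and Icmt at 0.997. Spink4 had Klf6 at 0.996, Nfatc1 at 0.996 and Nr4a1 at 0.990, which all encode transcription factors. Retnlb had Amhr2 at 0.977, Egr2 at 0.969 and Dmtf1 at 0.963. These are the highest values among 13759 genes over only 7 arrays, and the single Lgr5 array lies far from the rest. Muc2 ran from 1.38 to 2.94 on the Dll1 arrays, with -3.96 in Lgr5 cells, and Gfus from 1.70 to 1.95, with 0.46. How far that array sets these correlations was not tested.

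Of 30 other goblet cell genes, 28 were measured. In CD24 low against CD24 high 10 rose and 2 fell, with a median difference of 0.54, and in CD24 medium against CD24 high 8 rose and 6 fell, with a median of 0.11. Over all probes 5.96% rose and 9.56% fell in CD24 low, and 6.81% rose and 12.1% fell in CD24 medium. Capn9, a calpain protease of the digestive tract, differed by 2.49 in CD24 low (adjusted p = 0.004) and 2.01 in CD24 medium (adjusted p = 0.0093). Pdia5, a disulfide isomerase, differed by 1.92 and 1.45, and Agr3, a relative of Agr2, by 1.73 and 1.99. Agr3 stood apart from Agr2 in Lgr5 cells, with a log2 ratio of 2.94 there. Ramp1, a receptor accessory protein for the peptide CGRP, differed by -2.17 in CD24 low (adjusted p = 0.0032) and -2.08 in CD24 medium (adjusted p = 0.0042). Spdef, a transcription factor of goblet and Paneth cells, had log2 ratios of 3.79 and 3.52 in CD24 low cells and differed from CD24 high by 0.05 (adjusted p = 0.88). These counts depend on the dye normalisation: with median centring 19 rose and 1 fell in CD24 low, and 19 rose and 0 fell in CD24 medium, where 28.5% and 36.3% of all probes rose. Against the 1 Lgr5 array 25 of the 28 rose in CD24 low, 21 in CD24 medium and 22 in CD24 high, and 1 fell each time. Over all probes 11.7%, 9.76% and 19.8% rose there, and 5072, 4325 and 8163 of 24419 were called in either direction.

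Of 20 genes of mucus release, processing and luminal ions, 19 were measured. In CD24 low against CD24 high 1 rose and 2 fell, and in CD24 medium 0 rose and 3 fell. These counts are near the shares of all probes called, 5.96% higher and 9.56% lower in CD24 low and 6.81% and 12.1% in CD24 medium, so they are no result about the list. Pigr, which carries IgA across the epithelium, was higher in CD24 low by 0.88 (adjusted p = 0.034). Tgm2, a transglutaminase, differed by -0.88 in CD24 low and -0.97 in CD24 medium, and Aqp8, a water channel, by -1.20 and -1.35. Mep1b, a subunit of the brush border protease meprin, differed by -0.87 in CD24 medium (adjusted p = 0.026). With median centring 9 of the 19 rose in each comparison and 0 fell, where 28.5% of all probes rose in CD24 low and 36.3% in CD24 medium, so the direction of this list as a whole is not settled.

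Of 15 resistin-like, antimicrobial and cytokine-response genes 12 were measured. In CD24 low against CD24 high 4 fell and 1 rose, and in CD24 medium 6 fell and 0 rose. Over all probes 9.56% fell and 5.96% rose in CD24 low, and 12.1% fell and 6.81% rose in CD24 medium. With median centring 6 rose in CD24 low and 5 in CD24 medium, where 28.5% and 36.3% of all probes rose. The number lower in CD24 low stayed 4 with median centring. Among those lower were Paneth cell products: Itln1, an intelectin, differed by -9.29 in CD24 low and -6.03 in CD24 medium, Ang4, an angiogenin with antimicrobial action, by -7.86 and -6.25, and Pla2g2a, a secreted phospholipase, by -4.62 and -3.94. Reg3g, an antibacterial lectin, differed by -2.40 and -3.19. Itln1, Ang4 and Pla2g2a are also in the list of Paneth markers, of which 8 of 8 measured were lower than in CD24 high at both other levels. Itln1 was in addition lower in CD24 low than in CD24 medium, with a difference of -3.26 (adjusted p = 0.00088).

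The promoter table of RefSeq (GRCm38.p6) holds 3 of the 9 genes: Fcgbp and Agr2, which were called higher together in CD24 low and medium cells, and Muc2. By its brightest probe Muc2 was not called, while its probe 1 was called higher at both levels and its probe 3 in CD24 low. The 250 bases before the start are shown, on the plus strand, from chr7:28070986-28071235 for Fcgbp, chr12:35992675-35992924 for Agr2 and chr7:141690090-141690339 for Muc2. Capitals mark matches on either strand to the E-box forms CAGCTG and CAGATG, the forkhead form TGTTTAC and the CDX form TTTATNG. None of these forms overlaps another in these windows. CAGCTG stands 208 bases before the Fcgbp start and 112 bases before the Muc2 start, and it occurs in 13.0% of the 32851 mouse promoters of this length. Agr2 holds a match to TTTATNG, on the opposite strand 48 bases before its start, a form found in 9.81% of promoters. CAGATG, in 14.4% of promoters, and TGTTTAC, in 3.17%, had no match in these windows.
Fcgbp promoter: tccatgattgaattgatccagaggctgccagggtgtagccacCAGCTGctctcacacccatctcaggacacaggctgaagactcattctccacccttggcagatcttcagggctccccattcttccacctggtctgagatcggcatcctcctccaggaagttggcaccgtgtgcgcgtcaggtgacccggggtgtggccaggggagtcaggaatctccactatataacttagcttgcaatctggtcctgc
Agr2 promoter: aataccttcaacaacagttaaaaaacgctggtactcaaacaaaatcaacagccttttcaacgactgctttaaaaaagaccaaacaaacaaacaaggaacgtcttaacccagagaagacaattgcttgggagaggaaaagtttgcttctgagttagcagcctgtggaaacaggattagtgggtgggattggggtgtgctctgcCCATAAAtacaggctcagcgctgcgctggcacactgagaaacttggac
Muc2 promoter: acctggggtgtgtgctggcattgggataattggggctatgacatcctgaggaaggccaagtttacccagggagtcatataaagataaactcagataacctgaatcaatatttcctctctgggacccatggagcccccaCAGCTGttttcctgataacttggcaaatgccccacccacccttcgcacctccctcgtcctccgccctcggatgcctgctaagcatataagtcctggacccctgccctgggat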

How the data were processed

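Goblet mucus genes, gene lists and tests were chosen with earlier results of these data known. Per the file headers, the scanner files hold mean and background intensity of both channels from Agilent Feature Extraction 10.5.1.1, with mm9 coordinates, and a LogRatio on the log10 scale (Cy5 over Cy3). The values of the deposited series matrix are this log10 ratio with its sign turned, to within 5e-06. Per the labels, 100 ng of total RNA isolated with Trizol was amplified and labelled. Dyes were never exchanged, so a dye effect cancels only between samples. CD24 low lay on slide 2 alone, while CD24 medium and high lay on both slides and Lgr5 on slide 1.

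Background was corrected by normexp (offset 50) on mean signals, followed by loess within arrays (span 0.3) to give log2 ratios of sample over reference, in limma 3.58.1 and data.table (version 1.17.8) under R 4.3.3. Control spots had no weight and outlier spots of the sample channel were dropped. The filter kept the 24509 probes whose sample channel was well above background on 2 or more of 7 arrays, including the 13 of the 9 genes. A linear model with a mean per group (3 residual degrees of freedom) was fitted to all probes with Benjamini-Hochberg adjustment. Of the probes, 26918 were named through RefSeq accessions. Named list genes are the up to 4 largest changes of each list in each comparison of CD24 levels, or 2 where none passed, and Spdef was named always. Median centring was added after the data were seen. The comparisons of CD24 low and CD24 medium with CD24 high were also run on simulated data of 24198 probes with 200 changed. They recovered 21 and 26 of 100 changes of 1 on the log2 scale and 71 and 73 of 100 changes of 2. False calls numbered 4 and 7. In the real data far more probes were called, 3804 and 4634 of 24509, so these figures do not give the power of the tests there. Figures were drawn with matplotlib 3.10.9 and pandas 2.3.3 under Python 3.11.15. The number of arrays limits precision. Median intensity was 77.6 to 107.5 in the sample channel and 300.3 to 325.7 in the reference channel, with 0 saturated spots.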

Additional observations from a re-analysis of the deposited data

How the results depend on the processing

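The 6 genes called higher in CD24 low than in CD24 high by the brightest probe (Fcgbp, Zg16, Clca1, Bcas1, Agr2 and Tff3) kept that call under each of 25 alternatives, with median centring adding Muc2 to make 7. The number called lower in CD24 low, 2, was 1 from the sample channel alone, with slide as a term and with median centring, and 1 to 2 when an array was left out. In CD24 medium the number lower, 1, was 0 from the sample channel alone and with median centring, and the number higher, 6, was 2 to 6 when an array was left out (2 without CD24 medium replicate 1 or CD24 high replicate 2), and 4 within slide 2. Fcgbp and Bcas1 kept both calls throughout. Directions turned for Spink4 in CD24 medium minus CD24 high from the sample channel alone (0.24), for Muc2 there with the mean of its probes (0.33) or median centring (0.94), for Retnlb there with median centring (0.26), for Muc2 in CD24 low minus CD24 high without CD24 low replicate 1 (-0.14) and for Zg16 in CD24 high minus Lgr5 with median centring (-0.90). Of these genes, the report gives the values that the curve added for Spink4, Muc2 and Retnlb. The cause of the turned directions was not tested. Members called against Lgr5 numbered 8 to 9 in CD24 low, 8 to 9 in CD24 medium and 7 to 8 in CD24 high when an array was left out, and 6 in CD24 high with median centring. All probes called ranged from 2000 to 7939 around 3804 for CD24 low minus CD24 high, from 1452 to 9758 around 4634 for CD24 medium minus CD24 high, and from 10 to 178 around 21 for CD24 low minus CD24 medium. Agilent's processed signals moved the median of all probes to 0.27 and 0.24 in the comparisons of CD24 low and CD24 medium with CD24 high. Other goblet cell genes higher in CD24 low numbered 5 to 19 around 10, and in CD24 medium 3 to 19 around 8.

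CD24 medium minus CD24 high could be taken within each slide. It was 3.28 on slide 1 and 3.50 on slide 2 for Fcgbp, -1.84 and -2.04 for Spink4 and -0.30 and -1.18 for Muc2. As a random block, slide had a consensus correlation of 0.02 and changed no member call. Replicate numbers are shared only as numbers: differences of replicate 1 and 2 correlated at 0.46 between CD24 low and medium, -0.01 between low and high and 0.30 between medium and high. With the replicate number as a block over the 6 Dll1 arrays, 6 genes were higher and 2 lower in CD24 low than in CD24 high, and 6 higher and 1 lower in CD24 medium, the same counts as without it, and the block changed no call of a member.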
